A study of Mus musculus with 4 samples.

Results

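The 32 genes described here are interferon-stimulated genes, chosen by symbol as a module: the transcription factors Stat2, Irf1, Irf7 and Irf9, antiviral effectors such as Ifit1, Isg15, Rsad2 and Oasl2, the interferon-inducible GTPases, and the sensors and regulators Ifih1, Zbp1, Trim25 and Usp18. All 32 symbols were found once in both mRNA matrices, among 31054 features. They were followed across endothelial types, which were told apart by marker genes that include no member, and in the cells in which Ifit1, Ifit3, Isg15 and Rsad2 together reached at least 10 UMIs (unique molecular identifiers, that is, counted mRNA molecules). That threshold is called the gate, and it held 87 of 1333 endothelial cells in library 1 and 103 of 2000 in library 2.

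The 2 libraries are biological replicates. Each holds endothelial cells taken from ear skin of C57BL/6 mice on postnatal day 8, an age at which the dermal vessels are still growing. The cells had been sorted alive for the endothelial surface protein CD31 and for Cdh5CreERT2-Rtom, a red reporter that is switched on by a drug-activated recombinase under the promoter of the endothelial cadherin gene Cdh5, and all cells compared here carry it. Antibody tags for 5 surface proteins and 2 isotype controls were read from the same cells. No group had been given interferon, adult and wounded ears are not analysed here, and neither the number of animals behind a library nor the way the reporter was induced is stated in the labels.

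Interferons bind receptors that activate STAT proteins. Type I interferon acts mainly through a DNA element called the ISRE in the promoters of target genes, where STAT2 and IRF9 take part in binding, and interferon-gamma acts mainly through the GAS element. The proteins made in response sense foreign nucleic acids, block viral entry and translation, tag proteins with ISG15 or attack the vacuoles of intracellular parasites, and in endothelium the response also includes chemokines that recruit leukocytes.

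Endothelial cells were 88.99% and 89.33% of the cells that passed the filters in libraries 1 and 2, with medians of 8194 and 8800 UMIs per cell, and 3 barcodes occurred in both libraries. The gated types were lymphatic-like (217 and 444 cells in libraries 1 and 2), dividing blood (143 and 227), tip-like (107 and 174), capillary-like (128 and 208), artery-like (231 and 251) and vein-like cells (165 and 154). The marker genes that sorted the cells into types also led them, as the gating brings about. They were, for example, Ccl21a, Lyve1 and Prox1 in lymphatic-like, Gja4 and Sema3g in artery-like, and Selp and Ackr1 in vein-like cells. Car4 and Timp4 led capillary-like and Esm1 and Apln tip-like cells. Leading genes that took no part in the gating included Fgl2 in lymphatic-like, Egfl8 and Nebl in artery-like, and Sele and Cadm3 in vein-like cells. In capillary-like cells they included Mgll and Cd300lg, and in tip-like cells Slc14a1 and Nos2. Another 42 and 109 dividing lymphatic cells and 300 and 433 cells between types stayed outside the tests. Summed immune markers were low in every tested type, between 5.087 and 22.34 CPM (UMIs per 1000000 UMIs of the type and library) over 10 genes, of which 5 to 8 were at 0. Cells with 5 or more immune UMIs had been left out before, so the low values follow in part from the filter. Median depth differed between types, from 5832 UMIs in artery-like cells of library 2 to 13300 in dividing blood cells of the same library.

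The promoters of the members held ISRE and GAS letters more often than promoters at large, and a few are printed to show where. RefSeq promoter windows on GRCm38.p6, from 250 bases before to 50 bases after the gene start, were found for 25 of the 32 members. The ISRE letters, which are GAAA, then any 2 bases, then GAAA, read on both strands, occurred in 14 of these 25 (56.0%), against 3.99% of the promoters of 27025 genes. The GAS letters TTCNNNGAA, which read the same on both strands, occurred in 8 (32%), against 9.55% of all genes. Matches of one motif may overlap each other, a gene with several windows counts once if any of them holds the letters, and a match is a string of letters, not a shown binding site. The 160 bases before the start are printed, 5′ to 3′ on the strand of the gene, for the 4 genes that define the gate, for Oasl2, the member with the largest difference between lymphatic and blood cells, and for Irf1, the member with the smallest p between artery- and vein-like cells, with ISRE letters in capitals in the first 4 and GAS letters in capitals in Irf1.
Isg15, chr4:156200819-156200978, minus strand: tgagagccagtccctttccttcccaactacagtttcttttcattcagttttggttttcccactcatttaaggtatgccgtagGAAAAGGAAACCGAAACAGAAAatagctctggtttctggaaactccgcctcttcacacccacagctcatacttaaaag
Ifit1, chr19:34640729-34640888, plus strand: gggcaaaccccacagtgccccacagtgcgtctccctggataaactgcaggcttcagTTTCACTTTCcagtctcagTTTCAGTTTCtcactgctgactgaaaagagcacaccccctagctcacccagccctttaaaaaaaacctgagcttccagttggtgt
Ifit3, chr19:34583369-34583528, plus strand: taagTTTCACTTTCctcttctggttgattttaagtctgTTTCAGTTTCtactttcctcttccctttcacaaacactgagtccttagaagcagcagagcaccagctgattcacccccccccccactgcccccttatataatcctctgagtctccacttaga
Rsad2, chr12:26456453-26456612, minus strand: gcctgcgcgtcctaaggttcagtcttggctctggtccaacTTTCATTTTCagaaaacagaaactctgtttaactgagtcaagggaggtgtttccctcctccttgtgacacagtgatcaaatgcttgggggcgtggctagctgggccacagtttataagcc
Oasl2, chr5:114896774-114896933, plus strand: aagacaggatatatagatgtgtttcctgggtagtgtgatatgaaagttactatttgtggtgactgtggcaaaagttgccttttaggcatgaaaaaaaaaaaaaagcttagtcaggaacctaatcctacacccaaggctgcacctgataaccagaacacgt
Irf1, chr11:53769854-53770013, plus strand: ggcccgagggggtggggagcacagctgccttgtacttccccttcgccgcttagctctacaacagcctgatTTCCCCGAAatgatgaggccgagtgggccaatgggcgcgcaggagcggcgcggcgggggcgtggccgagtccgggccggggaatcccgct

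All 4 gate genes hold ISRE letters in their window, and in Isg15 there are 3 overlapping matches that form one unbroken run. Ifit1 and Ifit3 share the string TTTCAGTTTC, which is also in the windows of Gbp3, Gbp7 and Stat2. Oasl2 has neither motif in its window, like Oasl1, Irf7, Irf9, Ifi47, Trim25 and Xaf1, and the second window of Irf1 has none. In GENCODE vM21 on GRCm38, Oasl2 (ENSMUSG00000029561) runs on chromosome 5 from 114896936 to 114912234 and Oasl1 from 114923240 to 114937915, so the pair lie side by side. Ifit2, Ifit3 and Ifit1 follow each other on chromosome 19, starting at 34550694, 34583531 and 34640871.

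Lymphatic-like cells carried less mRNA of most of the module than blood endothelial cells did. UMIs were summed per library and type, and lymphatic-like cells were set against the mean log level of tip-, capillary-, artery- and vein-like cells with edgeR's quasi-likelihood test, p adjusted by Benjamini-Hochberg over 10647 genes with 0.05 as the threshold. Of the 31 members tested, 23 were lower and 2 higher in lymphatic-like cells, and 6 did not pass. Lymphatic and blood cells differ widely: 42.2% of all genes passed in this comparison, 21.3% higher and 20.9% lower. The median log2 change was -1.17 over the members and 0.02 over all genes tested. Both lymphatic-like values lay under all 8 blood values for 16 of 31 members (14% of all genes), and over all 8 for 2 members (14.2% of all genes). Mx1 did not pass the low-count filter and was not tested: it had 0 and 14 UMIs in lymphatic-like cells of libraries 1 and 2, and 3 or fewer in any other tested type and library.

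Among the effectors, Oasl2, a relative of the oligoadenylate synthetases, showed the largest difference. It had 2.23 and 1.30 CPM in lymphatic-like cells of libraries 1 and 2 (5 and 6 UMIs), against 36.1 and 25.2 CPM in tip-like, 41.3 and 30.45 in capillary-like, 50.7 and 33.8 in artery-like and 45.4 and 28.6 in vein-like cells, all scaled by TMM. All 8 blood values lay far above both lymphatic-like values (log2 change -4.37 ± 0.24 SE, adjusted p = 9.95e-11). Its neighbour Oasl1 had 3.12 and 3.68 CPM in lymphatic-like cells and between 0 and 17.1 CPM in the blood types, overlapped with them and did not pass (log2 -1.17 ± 0.49 SE, adjusted p = 0.0658).

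The exonuclease Isg20 had 2 and 7 UMIs in lymphatic-like cells (0.8915 and 1.52 CPM) and 4.01 to 9.88 CPM in the blood types, which did not overlap (log2 -2.42 ± 0.45 SE, adjusted p = 0.000273). Rsad2, the antiviral enzyme viperin, fell in lymphatic-like cells by the test (log2 -1.43 ± 0.48 SE, adjusted p = 0.0234), but its libraries did not match: 0.446 CPM in library 1 and 29.7 CPM in library 2, against 2.93 to 85.9 CPM in the blood types. Of its 137 UMIs in lymphatic-like cells of library 2, 135 came from the 20 cells over the gate. Rsad2 is itself a gate gene, so cells rich in it lie over the gate by definition. Ifit3, of the family that binds viral RNA, had 7.58 and 11.05 CPM in lymphatic-like and 13.9 to 41.45 CPM in blood cells (log2 -1.52 ± 0.28 SE, adjusted p = 0.000275). Its relatives Ifit1 (log2 -0.68, adjusted p = 0.0787) and Ifit2 (log2 -0.26, adjusted p = 0.442) did not pass, nor did the ubiquitin-like modifier Isg15, which had 100.3 and 145 CPM in lymphatic-like and 106 to 270.1 CPM in blood cells (log2 -0.37, adjusted p = 0.0753).

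The membrane-resident effectors differed by small amounts. Ifitm3, which blocks viral entry, had 1984 and 1817 CPM in lymphatic-like and 1945 to 4140 CPM in blood cells, which overlapped, and was lower by log2 -0.54 ± 0.07 SE (adjusted p = 2.69e-06). Bst2, or tetherin, which holds budding virus at the cell surface, had 409 and 517 CPM in lymphatic-like and 545 to 740 CPM in blood cells (log2 -0.46 ± 0.10 SE, adjusted p = 0.00139). Ifitm2 did not pass (log2 -0.16, adjusted p = 0.0929).

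The interferon-inducible GTPases of the Irg and Gbp families, which act against intracellular parasites and bacteria, have 7 members here, grouped by name after their values were known. All 7 were lower in lymphatic-like cells, against 20.9% of all genes: Ifi47 (log2 -2.73), Iigp1 (-2.37), Gbp2 (-1.77), Gbp3 (-1.65), Gbp7 (-1.23), Irgm1 (-1.05) and Igtp (-0.58, adjusted p = 0.0373), with the others at adjusted p from 4.36e-09 to 3.47e-05. Ifi47 had 9.81 and 5.42 CPM in lymphatic-like cells, against 26.3 to 68.9 CPM in the blood types. Iigp1 had 24.1 and 40.3 CPM in lymphatic-like cells, against 88.7 to 459 CPM in the blood types. Neither gene's groups overlapped, whereas Igtp, with 15.6 and 12.1 CPM in lymphatic-like cells, overlapped the tip-like values of 7.81 and 15.9 CPM. The call of Igtp was lost in DESeq2 (adjusted p = 0.331), without the library block (0.0695) and with the stricter type gate (0.108). Mx1, also an interferon-induced GTPase, was not tested.

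Among the transcription factors, Irf1, which is induced early by interferons and by inflammatory signals, fell most. It had 29.4 and 88.8 CPM in lymphatic-like cells, against 62.5 and 198 in tip-like, 172 and 439 in capillary-like, 123 and 254 in artery-like and 414.5 and 804 in vein-like cells (a log2 change of -2.18 ± 0.14 SE, adjusted p = 8.48e-10). Irf1 was higher in library 2 than in library 1 in every type, by 1.941 to 3.164 times, so that the groups separate within each library but overlap when libraries are pooled. Irf7, which amplifies type I interferon production, had 26.3 and 37.7 CPM in lymphatic-like and 51.4 to 99.8 CPM in blood cells (log2 -1.001 ± 0.17 SE, adjusted p = 0.000121). Stat2 was lower (log2 -0.79 ± 0.17 SE, adjusted p = 0.000866), and Irf9 did not pass (log2 -0.18 ± 0.13 SE, adjusted p = 0.284), with 41.5 and 30.8 CPM in lymphatic-like and 30.1 to 48.5 CPM in blood cells.

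Among sensors and regulators, Rtp4, a chaperone of membrane receptors, had 8.02 and 11.7 CPM in lymphatic-like cells, against 66.2 to 111 CPM in blood cells (log2 -2.92 ± 0.18 SE, adjusted p = 5.37e-10). Parp14, an ADP-ribosyltransferase, was lower as well (log2 -2.41 ± 0.14 SE, adjusted p = 1.95e-10). The ubiquitin ligase Trim25 (log2 -1.55), Xaf1 (-1.32), the RNA sensor Ifih1, or MDA5 (-1.30), Usp18, which removes ISG15 and restrains the interferon receptor (-0.74), and Ifi35 (-0.73) were also lower. The 2 members that were higher stood apart from the rest. Ifi27l2a had 124 and 111 CPM in lymphatic-like cells, against 2.19 to 81.6 CPM in blood cells, where library 1 had more than library 2 in all types but capillary-like cells (log2 3.17 ± 0.34 SE, adjusted p = 6.54e-07). Zbp1, a sensor of Z-form nucleic acids, had 8.02 and 13.65 CPM in lymphatic-like and 0.572 to 6.06 CPM in blood cells (log2 1.81 ± 0.39 SE, adjusted p = 0.00102), with only 1 to 11 UMIs per blood type and library.

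**Figure D1:**
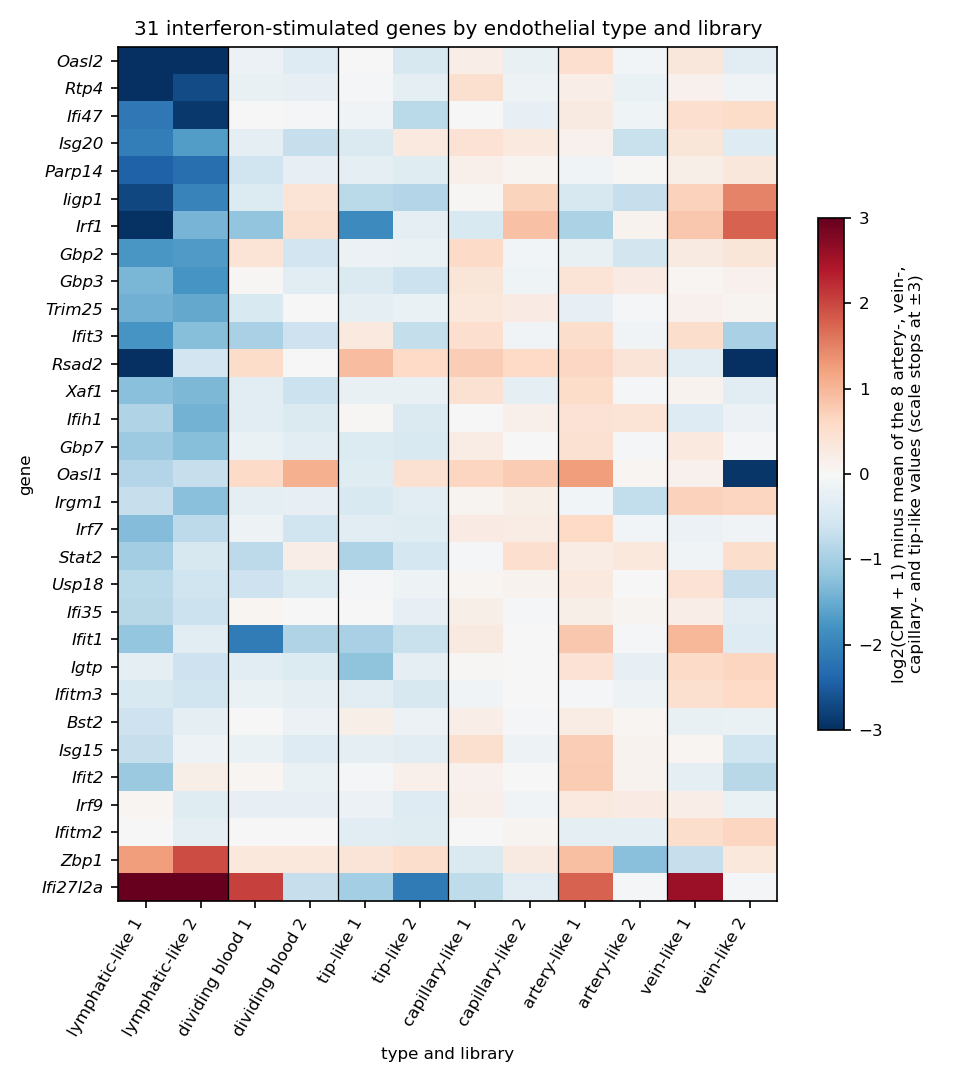
Levels of the 31 tested genes by type and library (columns) as log2(CPM + 1) minus the mean of the 8 tip-, capillary-, artery- and vein-like values of the gene, where blue is lower and red higher and the colours stop at 3. The 2 lymphatic-like columns are blue for most rows and red for Ifi27l2a and Zbp1, and within each library Irf1 and Iigp1 are highest in the vein-like column.

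**Figure D2:**
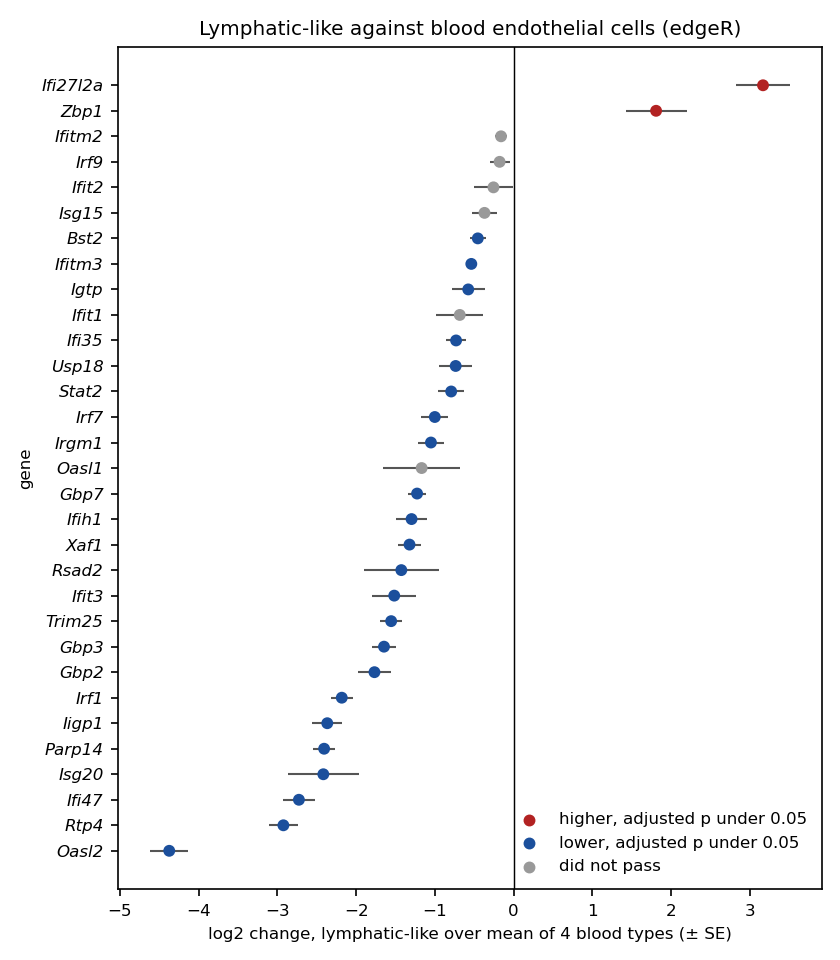
Log2 change of each gene in lymphatic-like cells over the mean log level of the 4 blood types, with its SE, from edgeR. Of 31 genes, 23 lie to the left of 0 and passed (blue), 2 lie to the right and passed (red), and 6 did not pass (grey).

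Genes of the same response outside the module were mostly lower too, and the signalling genes were mixed. Of 46 tested genes from a list of other interferon-stimulated genes, 29 were lower and 1 was higher in lymphatic-like cells, and 16 did not pass. Of all genes, 20.9% were lower and 21.3% higher. The median log2 change of the list was -1.23. The gene that was higher was Ccl5 (log2 2.11 ± 0.69 SE, adjusted p = 0.0204). Ly6a, the gene of the surface protein Sca-1, had 2.23 and 1.30 CPM in lymphatic-like cells, against 356 to 1361 CPM in blood cells. Ly6e (log2 -2.87), the immunoproteasome subunit Psmb8 (-2.07), Ifi203 (-6.29), Sp100 (-5.54) and Gbp4 (-3.05) were also lower, all at adjusted p of 2.4e-10 or less. Ly6a and Ifi203 had 4 to 6 UMIs per library in lymphatic-like cells and Sp100 had 0 and 9, so the sizes of their changes rest on few molecules.

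Of 28 tested genes of interferon signalling, 14 were lower, 3 were higher and 11 did not pass, with a median log2 change of -0.51. Of all genes, 20.9% were lower and 21.3% higher. The receptor gene Ifngr1 had 55.3 and 55.0 CPM in lymphatic-like cells, against 112.5 to 252 CPM in blood cells (log2 -1.72 ± 0.12 SE, adjusted p = 1.58e-09), and Jak2 (log2 -1.78), Stat3 (-0.96) and the feedback inhibitors Socs1 (-2.26) and Socs3 (-1.57) were lower too. Irf8 was higher in lymphatic-like cells, at 43.7 and 66.7 CPM, against 1.102 to 20.5 CPM in blood cells (log2 2.88 ± 0.19 SE, adjusted p = 8.48e-10). Beside these, 11 of 12 genes of an NF-kB response list and 9 of 12 immediate-early and stress genes were lower in lymphatic-like cells, against 20.9% of all genes. The part of these 2 lists in the lower levels of the members was not tested.

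The calls of Rsad2, Usp18 and Zbp1, like that of Igtp, were lost in the DESeq2 Wald test (adjusted p = 0.385, 0.0973 and 0.0553). Rsad2 was also lost without the library block (0.0683), with dividing cells kept in their type (log2 -0.72, adjusted p = 0.0646) and with the stricter type gate (0.089), and Usp18 with the stricter type gate (0.0501). With the cells over the gate left out, 25 members were lower and 2 higher. The gate genes Ifit1, Ifit3, Isg15 and Rsad2 are among the members tested there. Leaving out the cells rich in them cuts their values by rule, so this count is not read as support. The share of all genes that passed in that refit is not given here.

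Artery-like and vein-like cells, the ends of the arteriovenous axis, differed in few members. Of 31, 2 were higher and 5 lower in artery-like cells, and 24 did not pass, a share near the 18.5% of all genes that passed (9.22% higher, 9.23% lower). The median log2 change of the members was 0.09. Irf1 had 123 and 254 CPM in artery-like cells, against 414.5 and 804 CPM in vein-like cells (a log2 change of -1.71 ± 0.15 SE, adjusted p = 2.3e-07). Iigp1 had 118 and 101 CPM in artery-like cells, against 266 and 459 CPM in vein-like cells (a log2 change of -1.66 ± 0.19 SE, adjusted p = 6.67e-06). Both genes were lower in artery-like cells in each library. Irgm1 had 54.0 and 33.8 CPM in artery-like cells, against 92.1 and 89.4 CPM in vein-like cells (a log2 change of -1.04 ± 0.20 SE, adjusted p = 0.00091), Ifitm2 was lower by log2 -0.88 ± 0.09 SE (adjusted p = 2.44e-06) and Ifitm3 by -0.63 ± 0.08 SE (adjusted p = 1.86e-05).

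In the other direction, Isg15 had 270.1 and 175 CPM in artery-like cells, against 169.8 and 106 CPM in vein-like cells by log2 0.69 ± 0.21 SE (adjusted p = 0.0283). Ifih1 had 30.9 and 30.3 CPM in artery-like cells, against 17.1 and 19.8 CPM in vein-like cells (a log2 change of 0.74 ± 0.24 SE, adjusted p = 0.0404). Rsad2 had 69.45 and 58.4 CPM in artery-like cells and 34.9 and 2.93 CPM in vein-like cells, with 4 UMIs behind the last value, and did not pass (adjusted p = 0.0846).

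Of 46 other interferon-stimulated genes, 6 were higher and 9 lower in artery-like cells, against 9.22% and 9.23% of all genes. Among them were Lgals3bp (log2 4.10), Ly6a (1.35) and Ly6e (0.48) on one side and Slfn2 (-2.63), Cxcl10 (-4.49) and Cxcl9 on the other. Cxcl9 had 0 and 0 UMIs in artery-like cells, against 5 and 44 UMIs in vein-like cells, so no size is given for it. Cxcl10, a chemokine for T cells, had 6.06 and 26.3 CPM in artery-like cells, against 224 and 488 CPM in vein-like cells. Of 28 signalling genes 3 were higher and 7 lower, with Socs3 (log2 -1.13), Tmem173, the gene of STING (-1.68), and Jak2 (-1.56) among the lower. The 12 genes of the NF-kB response list summed to 1522 and 3601 CPM in artery-like cells, against 4404 and 9158 CPM in vein-like cells, and 9 of them were lower in artery-like cells. The part of that list in the levels of Irf1, Irgm1 and Iigp1 was not tested. The calls of Isg15 and Ifih1 were lost in DESeq2 (adjusted p = 0.0695 and 0.425). Without the library block those of Isg15, Ifih1 and Irf1 were lost (adjusted p = 0.127, 0.0678 and 0.133). That of Ifih1 was also lost without the cells over the gate (0.201) and with the stricter type gate (0.0528).

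Capillary-like cells differed in 1 member from the mean of the larger vessels. Against the mean log level of artery- and vein-like cells, Ifitm3 alone of 31 members passed, at 2550.0 and 2705 CPM in capillary-like, 2671 and 2461 CPM in artery-like and 3830 and 4140 CPM in vein-like cells (a log2 change of -0.27 ± 0.07 SE, adjusted p = 0.018). Of all genes, 9.37% passed here, 4.77% higher and 4.6% lower, and the median log2 change of the members was 0.03. The call of Ifitm3 was lost in DESeq2 (adjusted p = 0.0884), without the library block (0.17) and without the cells over the gate (0.0525). Of the other lists, 3 of 46 interferon-stimulated genes were higher and 1 was lower, Slfn2 (log2 -0.98), and of 28 signalling genes Ifngr1 was higher (log2 0.54, adjusted p = 0.00489) and 27 did not pass.

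Tip-like cells, which carry genes of the leading cells of vascular sprouts, had less of 5 members than capillary-like cells, and more of none. Of all genes, 4.29% passed, 2.12% higher and 2.17% lower. No member was higher in tip-like cells at an unadjusted p under 0.05 in edgeR or in DESeq2, and 11 and 7 were lower, and the median log2 change of the members was -0.41. Irf1 had 62.5 and 198 CPM in tip-like cells, against 172 and 439 CPM in capillary-like cells (log2 -1.24 ± 0.17 SE, adjusted p = 0.00021). Iigp1 had 92.7 and 88.7 CPM in tip-like cells, against 168 and 263 CPM in capillary-like cells (log2 -1.27 ± 0.22 SE, adjusted p = 0.00175). Stat2 had 15.6 and 20.8 CPM in tip-like cells, against 29.6 and 43.3 CPM in capillary-like cells (log2 -1.01 ± 0.25 SE, adjusted p = 0.0264). Tip-like cells were lower in both libraries for all 3. Ifitm3 (log2 -0.35, adjusted p = 0.0178) and Ifitm2 (-0.38, adjusted p = 0.0291) were lower by small amounts, and 26 members did not pass.

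Outside the module, 6 of 46 interferon-stimulated genes were lower in tip-like cells, against 2.17% of all genes. Among them were Gbp4 (log2 -1.42, adjusted p = 0.000344), Slfn5 (-1.19), Ly6a (-0.69), Ly6e (-0.47) and Psmb8 (-0.46). Of 28 signalling genes Stat3 alone passed (log2 -0.59, adjusted p = 0.0352). The 12 NF-kB response genes summed to 1147 and 3040 CPM in tip-like cells, against 1614 and 3762 CPM in capillary-like cells, and the part of that list in the levels of Irf1 was not tested. Without the library block all 5 member calls were lost, and DESeq2 kept those of Irf1 and Iigp1.

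Dividing blood cells had less of 6 members than capillary-like cells. The group mixes dividing cells of all blood types, cells between types included. Its capillary markers summed to 12340 and 9804 CPM in libraries 1 and 2 without TMM scaling, against 26530 and 18580 CPM in capillary-like cells. Division and vessel type thus differ together in this comparison, and the part of each was not tested. Of all genes, 19.5% passed, 11.8% higher and 7.69% lower. The share of members that passed was near that of all genes in either direction, but all 6 were lower. At an unadjusted p under 0.05, 1 member was higher and 16 were lower in edgeR, and 0 and 7 in DESeq2. Ifit1 had 11.2 and 26.65 CPM in dividing blood cells, against 61.05 and 50.4 CPM in capillary-like cells (log2 -1.47 ± 0.43 SE, adjusted p = 0.0243). Irf7 (log2 -0.65, adjusted p = 0.0375), Xaf1 (-0.62), Irf1 (-0.56), Parp14 (-0.53) and Trim25 (-0.52) were lower too, at adjusted p from 0.0132 to 0.0287 for the last 4. The groups of Ifit1 did not overlap. The median log2 change of the members was -0.41, and 25 did not pass. Of 46 other interferon-stimulated genes 1 was higher, Psmb9 (log2 0.72), and 10 were lower, led by Slfn5 (-1.94) and Ifi203 (-0.73), and of 28 signalling genes 1 was higher, Mb21d1, the gene of the DNA sensor cGAS (1.52), and 5 were lower, led by Il10rb (-0.86) and Stat3 (-0.67). Dividing blood cells held more UMIs per cell, 13010 and 13300, against 7235 and 7437 in capillary-like cells. DESeq2 kept 2 of the 6 calls, those of Irf1 and Ifit1, and the fit without the library block kept that of Parp14.

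By mean level over both libraries, lymphatic-like cells were the lowest of the 6 types for 24 of the 32 members. Artery-like cells were the highest for 14 members and vein-like cells for 10. Such counts were not made over all genes, so they are not read as particular to the members. Neighbours in such an order can lie within each other's spread, as for Isg15, which averaged 223 ± 67.2 CPM in artery-like, 184.8 ± 56.1 in capillary-like, 138.0 ± 44.97 in vein-like, 131 ± 12.1 in dividing blood, 129.8 ± 4.03 in tip-like and 122.5 ± 31.4 CPM in lymphatic-like cells (SD, n = 2 each). Iigp1 spread more widely, with 363 ± 137 CPM in vein-like, 215 ± 67.2 in capillary-like, 171 ± 66.5 in dividing blood, 109 ± 12.2 in artery-like, 90.7 ± 2.87 in tip-like and 32.2 ± 11.5 CPM in lymphatic-like cells. Between libraries, the median ratio of library 2 to library 1 over the members ran from 0.7781 in artery-like to 1.134 in lymphatic-like cells.

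The UMIs of the 4 gate genes were spread unevenly over the endothelial cells. These genes had no UMI at all in 620 of 1333 endothelial cells of library 1 and in 1088 of 2000 of library 2, while 10 and 16 cells had 50 UMIs or more and the highest cells had 162 and 428. The share over the gate was 6.53% in library 1 and 5.15% in library 2. The 95% intervals, exact by Clopper and Pearson, were 5.26 to 7.99% and 4.22 to 6.21%. The intervals cover counting error only. There was no gap at the threshold: 12 and 9 cells had exactly 10 UMIs and 18 and 8 had 9. All 4 genes were detected together in 33 and 41 of the cells over the gate, and in 2 and 8 of them Isg15 was the only one.

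**Figure D3:**
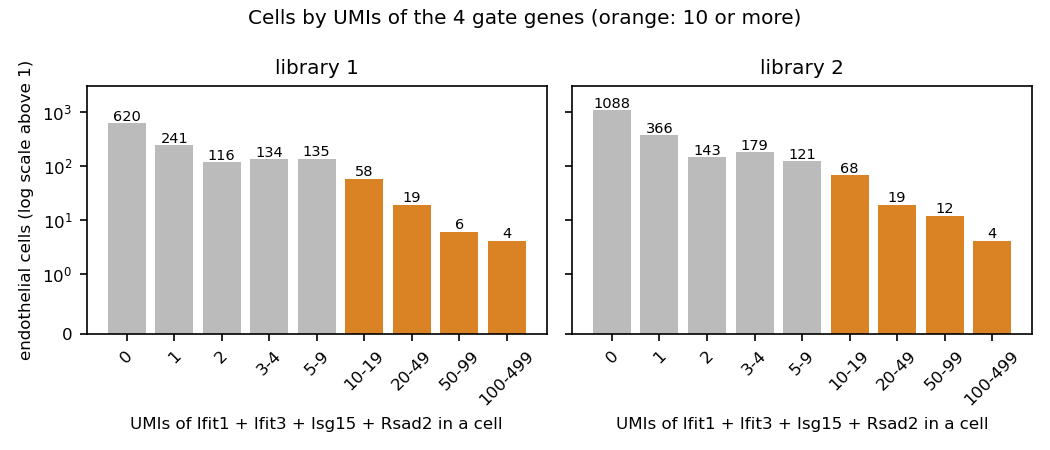
Number of endothelial cells (vertical axis, logarithmic above 1) by the UMIs of Ifit1, Ifit3, Isg15 and Rsad2 in a cell (horizontal axis, classes of unequal width), for each library. Cells over the gate of 10 UMIs are orange, 87 in library 1 and 103 in library 2, out of 1333 and 2000, while 620 and 1088 cells had none of these UMIs.

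Cells over the gate occurred in every type. Their share was 3.69% and 4.505% of lymphatic-like cells in libraries 1 and 2 and 6.99% and 4.85% of dividing blood cells. It was 2.80% and 5.17% of tip-like, 10.9% and 6.25% of capillary-like, 8.225% and 3.98% of artery-like and 7.88% and 4.545% of vein-like cells. The exact intervals of these shares overlapped within each library. The overlap was narrow between lymphatic-like (1.605 to 7.135%) and capillary-like cells (6.11 to 17.7%) of library 1. No order of types is read from the shares. Each cell with at least 5000 UMIs was also thinned to that depth, with a gate of 5 UMIs. The shares were then 4.76% of 210 and 4.02% of 423 lymphatic-like cells in libraries 1 and 2, 4.965% of 141 and 4.0% of 225 dividing blood cells, and 3.03% of 99 and 5.88% of 153 tip-like cells. They were 13.7% of 102 and 8.19% of 171 capillary-like, 14.1% of 170 and 7.23% of 166 artery-like, and 8.67% of 150 and 5.30% of 132 vein-like cells. Over all endothelial cells they were 9.05% of 1171 and 5.69% of 1740. No order is read from these shares either.

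The cells over the gate carried 8.158% of the endothelial UMIs in library 1 and 5.94% in library 2. They carried 72.6% and 75.2% of the UMIs of Rsad2 and 45.65% and 54.9% of those of Isg15, which the gate itself used. Of members outside the gate, they held 59.4% and 70.4% of the UMIs of Oasl1 and 46.2% and 59.1% of those of Ifit2.

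Cells over the gate also carried more mRNA of most members that the gate did not use. Because these are the same cells that the gate chose, the values are described without a test. Of the 28 other members, 22 were at least 2 times higher over than under the gate in both libraries and 0 were at least 2 times lower. The others were Bst2, Ifitm2, Ifitm3, Irf1, Trim25 and Ifi27l2a. Of the 8696 genes with at least 20 UMIs in these cells, 1.03% were higher and 0.0115% lower by that rule. That limit asks for UMIs over the gate, so a gene can enter it through the cells in which it is high. Among genes with at least 300 UMIs over all endothelial cells, a limit chosen after seeing the data, 19 of 25 members were higher, against 0.623% of 8669 genes, and 0 were lower, against 0.219%. Zbp1, Isg20 and Mx1 were under that limit. For Mx1, which had fewer than 3 UMIs under the gate of library 1, 3 UMIs were used there. Against cells under the gate that were matched on type and depth the count was 21 of 28 (0.977% of genes, with 0.0345% lower), with Irf9 now short of it and Ifi27l2a past it. Mx1 was not counted there, because it had 0 UMIs in the matched cells of both libraries and the lower bound set by 3 UMIs was 1.974 times in library 1. For cells with at least 20 gate UMIs the count was 23 (2.04% of 5923 genes, with 0.0169% lower).

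Oasl1 had 71.4 and 131 CPM over the gate, against 4.34 and 3.47 CPM under it, 16.45 and 37.64 times as much, the largest ratio by the smaller of the 2 libraries among the members outside the gate other than Mx1. Ifit2 had 150.4 and 274 CPM over the gate, against 15.5 and 11.98 CPM under it. Mx1, whose allele in C57BL/6 and many other laboratory strains is known to be defective, had 6 and 20 UMIs over the gate, against 2 and 4 UMIs in the far more numerous cells under it. By the smaller of the 2 ratios these were the 3 members outside the gate with the largest difference, while in library 2 the ratio of Zbp1 (30.79) was above that of Ifit2 (22.89).

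Irf7 had 209.6 and 332 CPM over the gate, against 47.4 and 32.01 CPM under it. Usp18 had 81.8 and 135.5 CPM over the gate, against 17.3 and 11.7 CPM under it. Zbp1 had 15.98 and 83.7 CPM over the gate, against 3.42 and 2.72 CPM under it. The 2 libraries were far apart for Zbp1, at 4.668 and 30.79 times. The GTPases were higher by 2.59 (Irgm1) to 3.995 times (Igtp) in library 1 and by 3.451 (Irgm1) to 10.0 times (Gbp2) in library 2.

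Irf1 differed little across the gate, although it is an interferon-stimulated gene and was among the members that varied most between types: it had 225 and 328 CPM over the gate, against 140.4 and 265 CPM under it. Ifitm2 had 954 and 921 CPM over the gate, against 971 and 863.5 CPM under it, and Ifitm3 had 3924 and 4338 CPM, against 2473 and 2098 CPM. The members with the smallest differences across the gate include those with high levels in cells of every type.

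**Figure D4:**
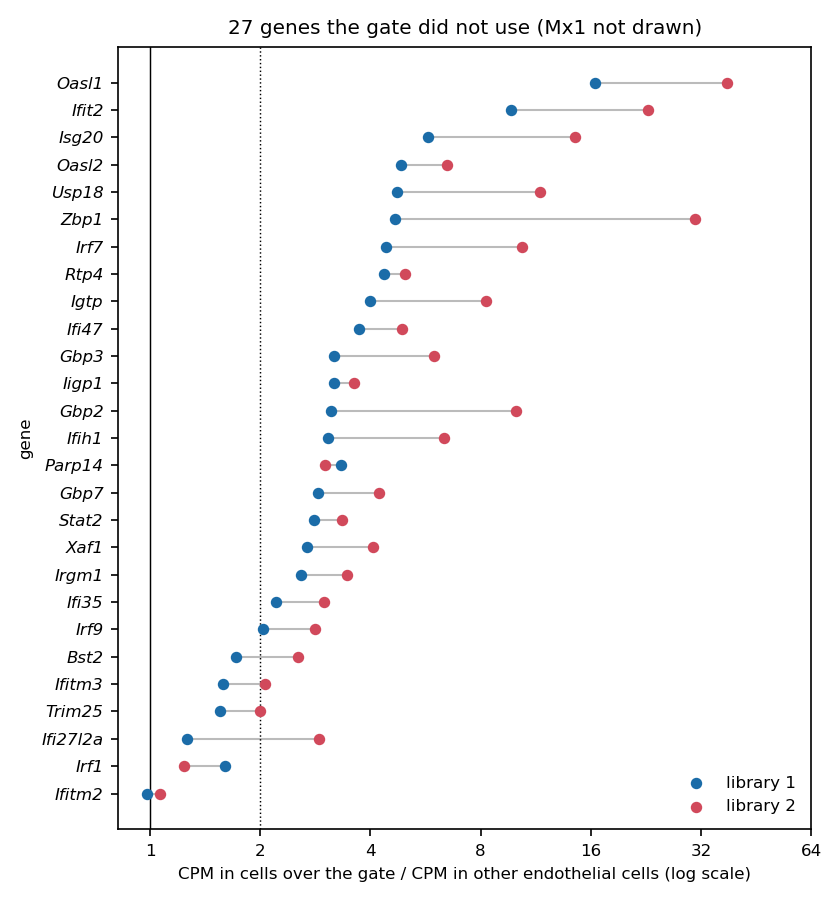
Ratio of CPM over the gate to CPM under it (horizontal axis, log scale) for the 27 members outside the gate other than Mx1, with 1 point per library and a grey line between them. The dotted line marks 2 times, and by the smaller of the 2 ratios Oasl1 and Ifit2 lie farthest to the right, while Zbp1 reaches 30.79 in library 2 and Ifitm2 lies near 1.

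One cell carried a large part of some values. The top cell of library 2, which fell between types, had 428 gate UMIs, 263 of them Rsad2, and held 39.4% of the Gbp2 and 31.7% of the Oasl1 UMIs over the gate. Without the top cell of each library Oasl1 was still 16.8 and 25.9 times higher over the gate, Gbp2 was 3.203 and 6.115 times higher, and 22 of 28 members stayed at least 2 times higher in both libraries.

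Among genes outside the module, other interferon-stimulated genes and chemokine genes had large ratios across the gate. The 15 non-members with the largest smaller-of-2-libraries ratio were taken among genes with at least 20 UMIs over the gate, so they had to be detected where they were then ranked as high, and 3 of the 15 (Ccl5, Cxcl10 and Cmpk2) had at least 300 UMIs over all endothelial cells. Of the 15, the chemokine genes Ccl5 (541 and 631 CPM over the gate, against 32.8 and 15.7 CPM under it) and Cxcl10 (370.4 and 894 CPM over, against 43.2 and 94.6 CPM under) had the most UMIs. The others were Ifit1bl1, Ifi211, Ifit3b, Ifi213, Pla1a, Apol9a, Gm4951, Apol9b, F830016B08Rik, Gbp5, Cmpk2, Ddx60 and Cd274, the gene of PD-L1, and the smaller ratio of each was 4.558 (Cd274) or more. Of the 15, 9 are on the list of other interferon-stimulated genes used above. Ifit1bl1, at 11 and 10 UMIs over the gate, had 1 and 2 UMIs under it. Ccl5 was concentrated: of its 576 and 792 UMIs over the gate, 566 and 775 came from cells with at least 20 gate UMIs. The cells matched on type and depth had 0 Ccl5 UMIs in both libraries. For Cxcl10, 237 of 394 and 929 of 1122 UMIs came from cells with at least 20 gate UMIs. The part of single cells was not measured for genes outside the module. Ifit3 and Ifit3b, Apol9a and Apol9b, and Iigp1 and Gm4951 are close relatives, and the labels do not say how reads shared by them were counted.

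Of the list of other interferon-stimulated genes, 49 had at least 20 UMIs over the gate, and 32 of these were at least 2 times higher in both libraries. Of the signalling list it was 3 of 24, and of all genes by the same rule 1.03%. A gene can enter by that limit through the cells in which it is high. Counts with a limit on UMIs over all endothelial cells are not given for these lists. Of the 12 genes of the NF-kB response list 1 was at least 2 times higher in both libraries, the chemokine gene Ccl2. It had 75.2 and 892.5 CPM over the gate, against 19.7 and 67.9 CPM under it. Of its 80 and 1120 UMIs over the gate, 49 and 1059 came from cells with at least 20 gate UMIs. The whole NF-kB response list summed to 1934 and 3914 CPM over the gate, against 1680 and 3241 CPM under it, and in library 2 the difference of Ccl2 was larger than that of the sum. Immediate-early and stress genes summed to 7564 and 9238 CPM over the gate, against 7459 and 9091 CPM under it. No UMI was found for 20 of 21 interferon genes in any deposited barcode of either library, Ifnb1, Ifng and the Ifna genes included, and the remaining one, Ifne, had 2 UMIs in each library.

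Depth, sex and immune markers were read in the same cells. Median UMIs per cell were 9946 and 11130 over the gate, against 8064 and 8731 under it, and the part of depth in the gate was measured only by the matched and thinned values above. Cells with Xist and cells with Y-linked UMIs were both found over the gate, 43 and 39 with Xist only and 38 and 47 with Y-linked genes only. The 10 immune markers summed to 14.1 and 11.2 CPM over the gate, against 12.2 and 11.5 CPM under it. Cells with 5 or more immune UMIs had been left out beforehand, which keeps these sums low. Fcer1g had 11 and 4 UMIs over the gate, Cd68 1 and 7, Lyz2 1 and 2, Tyrobp 1 and 1, and Laptm5 1 and 0. Cd3e, C1qa, Cd52 and Cpa3 had no UMI on either side of the gate. Ptprc had none over it, and 1 and 1 under it. Dividing cells were 12.6% and 17.5% of those over the gate, against 14.0% and 16.8% of those under it.

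The gate also cut across the difference between lymphatic and blood cells. Only 8 and 20 lymphatic-like cells lay over the gate, and 49 and 39 cells of the 4 blood types, so these levels are given without a test. Rtp4 had 155 and 159 CPM in lymphatic-like cells over the gate, against 3.83 and 3.51 CPM in those under it, and 291 and 236 CPM in blood cells over the gate, against 71.2 and 57.9 CPM in those under it. Usp18 had 171 and 218 CPM in lymphatic-like cells over the gate, against 9.11 and 4.61 CPM under it, and 82.9 and 99 CPM in blood cells over it, against 23.0 and 16.9 CPM under it. Lymphatic-like cells over the gate thus reached more than the level of blood cells under it for both genes, and for Usp18 more than that of blood cells over it.

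Oasl2 had 62.1 and 25.2 CPM in lymphatic-like cells over the gate (4 and 6 UMIs), against 0.479 and 0 CPM under it (1 and 0 UMIs), and 136 and 114 CPM in blood cells over the gate, against 35.2 and 23.5 CPM under it. All but 1 of its UMIs in lymphatic-like cells thus came from cells over the gate. Irf1 had 46.6 and 143 CPM in lymphatic-like cells over the gate, against 30.2 and 82.6 CPM under it, and 305 and 424 CPM in blood cells over the gate, against 197 and 386 CPM under it. For Irf1 the lymphatic-like cells over the gate stayed under the blood cells under it in both libraries.

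**Figure D5:**
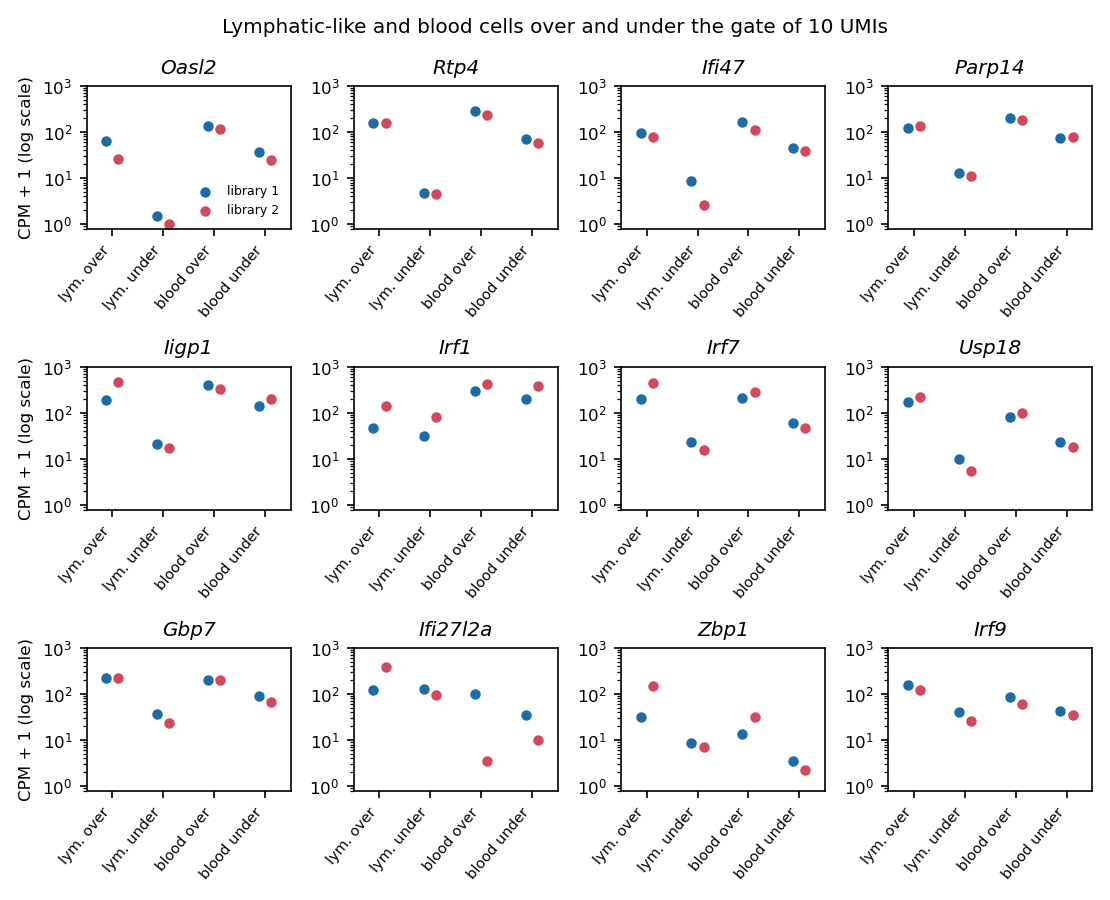
Level of 12 members (CPM + 1, log scale) in lymphatic-like (lym.) and blood cells over and under the gate, 1 point per library. Rtp4, Ifi47 and Oasl2 are near the bottom only in lymphatic-like cells under the gate, while Irf1 is lower in lymphatic-like cells on both sides of it.

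Protein tags gave another readout of the same cells. The mean ICAM1 tag count was 170.1 and 187 in cells over the gate, against 123 and 141 in cells under it, while the sum of all tags was 200.2 and 225 over the gate, against 150.5 and 168 under it. The SD between cells was above the mean in each case, and the rat IgG2a isotype control was also higher, at 1.36 and 2.25 over the gate, against 1.13 and 1.87 under it. The tags of VCAM1 (3.48 and 2.43 over the gate, 2.02 and 2.11 under it), CXCR4 (18.0 and 26.2 over, 18.65 and 17.0 under) and VEGFR2 (3.72 and 4.70 over, 3.16 and 3.90 under) are given without a test, and CXCR4 went opposite ways in the 2 libraries. The CD45 tag was 3.31 and 2.62 over the gate, against 2.19 and 2.30 under it.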

How the data were processed

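The mRNA and the antibody tags of single endothelial cells from mouse ear skin were used, in 2 biological replicates. The mRNA matrices hold deposited UMI counts per gene and barcode, which the authors made with Cell Ranger and mm10 according to the submitters' processing notes. The file headers give version 3.0.2. Aligner settings, the choice of barcodes and the role of Seurat 3.0.2, also in the notes, are not stated. For the tags, counts per antibody were deposited, with no word on whether they are UMIs or reads. The members, lists, tests and markers were chosen with earlier results of these data known.

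Of 1745 and 2877 barcodes (15989249 and 26675353 UMIs in libraries 1 and 2), those with at least 500 genes and at most 10% mitochondrial UMIs were kept (1500 and 2250). Scrublet (scanpy 1.11.5, doublet rate set to 0.8% per 1000 cells) marked 2 and 11 doublets, which were left out. That is few, so doublets may remain: 0.9002% and 1.15% of endothelial cells held both Xist and Y-linked UMIs. Free RNA was not corrected. Endothelial cells had at least 5 UMIs of endothelial markers and fewer than 5 of any set for pericytes, immune cells, keratinocytes, fibroblasts, Schwann cells or melanocytes (under 10 for smooth muscle and 20 for erythroid genes). A cell took the type with the highest mean standardised log level of its markers if it led by at least 0.3. Dividing cells had at least 10 UMIs of cycle markers, whatever their lead, and were called lymphatic or blood by their highest type.

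UMIs were summed per library and type and tested with edgeR 4.0.16 (TMM, low-count filter, quasi-likelihood, library as a block) in R 4.3.3, in 1 fit of 6 types and 2 libraries with 5 residual degrees of freedom. The block was used because the types of a library were read from the same pool of cells. Each standard error was taken as the size of the log2 change over the square root of F. With the block, p-values measure how much the differences between types varied from one of these 2 libraries to the other. A shift shared by all types of a library is taken out by the block. The spread is estimated over all 6 types together, and covers these 2 libraries only. Type levels are TMM-scaled CPM. Levels over and under the gate are plain CPM of summed UMIs and had no test. The test was also run on simulated data for the tip-like against capillary-like comparison (10206 genes). It found 66% of the genes with a 2-fold and 90% of those with a 4-fold change, and 6.59% of calls were false. In the simulation, types and libraries shared the same mean for each gene apart from the changed genes. The spread followed the level of the gene only and no library effect was drawn, so these rates hold for that setting. All members are named. Of the other lists up to 6 genes per comparison with the smallest adjusted p are named, and of all other genes in gated cells the 15 with the largest ratio. Ccl5 is also named in the lymphatic-like comparison, as the 1 gene of its list that was higher. Alternatives were DESeq2 1.42.0, its size factors, no low-count filter, no block, other cell and type filters, other gates, and another limit on low genes over the gate. In the stricter type gate the lead was 0.5.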

Additional observations from a re-analysis of the deposited data

How the results depend on the processing

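Of 44 member calls in 5 comparisons refitted under 8 settings (346 values), 299 were kept, 47 were lost and 0 were reversed. The losses came from the fit without the library block (16), the DESeq2 Wald test (14), the stricter type gate (8), and the fits without gated cells, with dividing cells kept in their type and with no cell filter (3 each). In single libraries, without a test, none of 88 values was reversed. The types of a library are paired by it: without the replicate block, 4 members passed in place of 7 in artery- against vein-like cells, 0 in place of 1 in capillary-like cells, 0 in place of 5 in tip-like cells and 1 in place of 6 in dividing blood cells. DESeq2 passed 0 in capillary-like, 2 in tip-like and 2 in dividing blood cells. At an unadjusted p under 0.05, edgeR without the block had 2 members in capillary-like and 10 in tip-like cells, and DESeq2 had 1 in capillary-like cells. Without the low-count filter 13 passed in artery- against vein-like and 3 in capillary-like cells. With dividing cells kept in their type 3 passed in capillary-like and 3 in tip-like cells. Over all genes, edgeR and DESeq2 passed 4488 and 2745 in lymphatic-like, 1965 and 1065 in artery- against vein-like, 998 and 549 in capillary-like, 457 and 232 in tip-like and 2073 and 834 in dividing blood cells. Without the block 622, 193 and 1369 passed in capillary-like, tip-like and dividing blood cells, and without the low-count filter 699 in tip-like cells. The mean share of cells over the gate, 5.84%, was 13.9% with at least 5 UMIs, 1.96% with at least 20, 4.35% without Ifit1 and 2.16% without Isg15 in the gate. It was 7.37% in cells thinned to 5000 UMIs, a setting chosen after seeing the data, and 5.15 to 6.53% in single libraries. The count of members at least 2 times higher over the gate was 22 with both libraries and 22 to 25 with 1 library left out. It was 19 of 25 with genes kept by their UMIs over all endothelial cells, a limit chosen after seeing the data. The cause of these shifts was not tested. With 2 libraries and few UMIs in small types, low members such as Zbp1, Isg20 and Oasl1 have the least precise values.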

Other observations

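Cells outside the endothelial types also passed the gate. Of 108 and 121 barcodes over it in libraries 1 and 2, 18 and 11 were kept cells that were not counted as endothelial, which is 10.9% of 165 and 4.60% of 239 such cells. Of these 18 and 11, 12 and 6 were over the limit for pericyte markers. A further 3 and 6 failed the cell filter, and 0 and 1 were called doublets. Gated endothelial cells had 16.9 and 8.77 CPM of summed pericyte markers, against 11.9 and 8.30 CPM in cells under the gate.

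Dividing lymphatic cells, which took no part in the tests, had low levels of the same members as lymphatic-like cells. Oasl2 had 0 and 11 UMIs there, Rtp4 had 9.86 and 11.6 CPM, Ifi47 had 2.46 and 6.79 CPM and Irf1 had 25.9 and 50.9 CPM. Ifi27l2a had 82.5 and 76.1 CPM. The cell with most gate UMIs in library 1 was one of these dividing lymphatic cells, with 162 gate UMIs, 98 of Isg15 and 63 of Rsad2, and those 63 were all the Rsad2 UMIs of dividing lymphatic cells in that library.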
